A study of Homo sapiens with 6 samples.

Results

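The kinesin superfamily of microtubule motors was described in the human cell line A549, which derives from a lung adenocarcinoma, after exposure to polystyrene microplastics (PS-MPs). Members were the protein-coding rows of the count table named KIF followed by a number and optional letters, together with KIFC1, KIFC2, KIFC3, KIFAP3 and KIFBP. The rule matched 49 names, of which 5 were pseudogenes and were left out, so the family held 44 of the 62710 genes. The PS-MP group was 3 libraries of cells that received particles for 48 h at a labelled concentration of 20 mg/mL. Controls were 3 libraries of the same line whose treatment is labelled none. Both groups grew in DMEM with fetal bovine serum, and poly(A)-selected RNA was sequenced in paired-end mode with a stranded kit. The study's title sets the comparison in the context of radiotherapy resistance, ferroptosis and NF-kB, but no library is labelled as irradiated. Whether replicates are separate cultures is not stated, so the p-values reflect differences among 6 libraries that could be technical.

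Kinesins use ATP to move along microtubules or to take them apart at their ends. Mitotic kinesins build the bipolar spindle, move and align chromosomes, and organise the midzone and midbody at which a cell divides. Many of their transcripts are known to peak in G2 and mitosis. Transport kinesins carry organelles, vesicles and protein complexes, mostly towards the cell periphery, and are needed in cells whether or not these divide. By these roles the 44 members were placed in 3 classes, 14 mitotic, 16 cargo-transport (the accessory subunit KIFAP3 included) and 14 others, which are mainly ciliary and microtubule-regulating motors and the kinesin-binding protein KIFBP. KIF2A, which acts at spindle poles as well as in neurites, was placed with the others, and the classes were set with earlier results of these data known.

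Total counts were 17013293 to 21316451 per library, and values are given as CPM, counts scaled to a common library size by TMM, a factor per library that offsets differences in RNA composition. At this depth 3 counts correspond to 0.137 to 0.177 CPM, a floor that covers counting error only. Replicate 3 stood apart in both groups, since its correlation with the other libraries of its group was 0.984 and 0.981 among PS-MP libraries and 0.984 and 0.985 among controls, against 0.992 and 0.994 between replicates 1 and 2. The epithelial keratins KRT8, KRT18 and KRT7 averaged 3803, 2582 and 1469 CPM in PS-MP cells and 3502, 2540.1 and 1268 CPM in controls. KRT19 had 16.7 ± 2.74 CPM in PS-MP cells and 16.0 ± 6.59 CPM in controls. CDH1 had 91.4 ± 22.7 CPM in PS-MP cells and 76.9 ± 23.1 CPM in controls. EPCAM was low, at 2.18 ± 0.373 CPM in PS-MP cells and 2.47 ± 0.339 CPM in controls. None of these 6 epithelial markers was called. Of the 7 alveolar type 2 markers SFTPA1, SFTPA2, SFTPB and NKX2-1 were too low to test, with SFTPA1 at 0 in every library. The other 3, none of them called, were ABCA3, SFTPD and LAMP3. ABCA3 had 76.04 ± 1.21 CPM in PS-MP cells and 60.1 ± 21.2 CPM in controls, without overlap. Its controls read 74.1, 70.4 and 35.7 CPM in replicates 1 to 3. SFTPD had 2.12 ± 0.223 CPM in PS-MP cells and 1.16 ± 0.184 CPM in controls, without overlap (adjusted p = 0.0681). LAMP3 had 1.19 ± 0.259 CPM in PS-MP cells and 1.01 ± 0.376 CPM in controls. The 6 leukocyte markers summed to 0.280 to 0.695 CPM in PS-MP libraries and 0.321 to 0.366 CPM in controls, with CD3E and MS4A1 at 0 in every library. The 6 endothelial markers summed to 0.695 to 1.01 CPM in PS-MP libraries and 0.321 to 1.06 CPM in controls. Of the 6 fibroblast markers, summed at 10.1 to 14.4 CPM in PS-MP libraries and 6.78 to 8.69 CPM in controls, COL1A2 was at 0 and DCN rose (log2 fold change 1.11 ± 0.26 SE, adjusted p = 0.0245). The part of these markers in the results was not tested.

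In the PS-MP libraries the mitotic kinesins fell together, whereas most transport kinesins were within 0.5 of their control levels on the log2 scale. All 12 tested mitotic members were lower, by 2.87-fold for KIF18A to 9.57-fold for KIF14, with a median log2 fold change of −2.49. With KIF2A counted as mitotic, a class chosen after its values were seen, 12 of 13 were lower and the median was −2.44. Among 16 tested transport members 2 rose and 1 fell, with a median of 0.01. Of the 10 tested others 2 fell. The test was the quasi-likelihood one of edgeR, with p-values adjusted by Benjamini-Hochberg over the 15458 genes that passed a filter on low counts, and it gives each adjusted p here unless another tool is named. That test called 1478 genes at an adjusted p under 0.05, 9.56% of those tested, with 759 higher (4.91%) and 719 lower (4.65%), and the median log2 fold change of all tested genes was 0.00. With total counts as the only scaling the split was 535 higher and 861 lower. In these bulk libraries, fewer dividing cells and less of a transcript in each cell cannot be told apart.

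**Figure D1:**
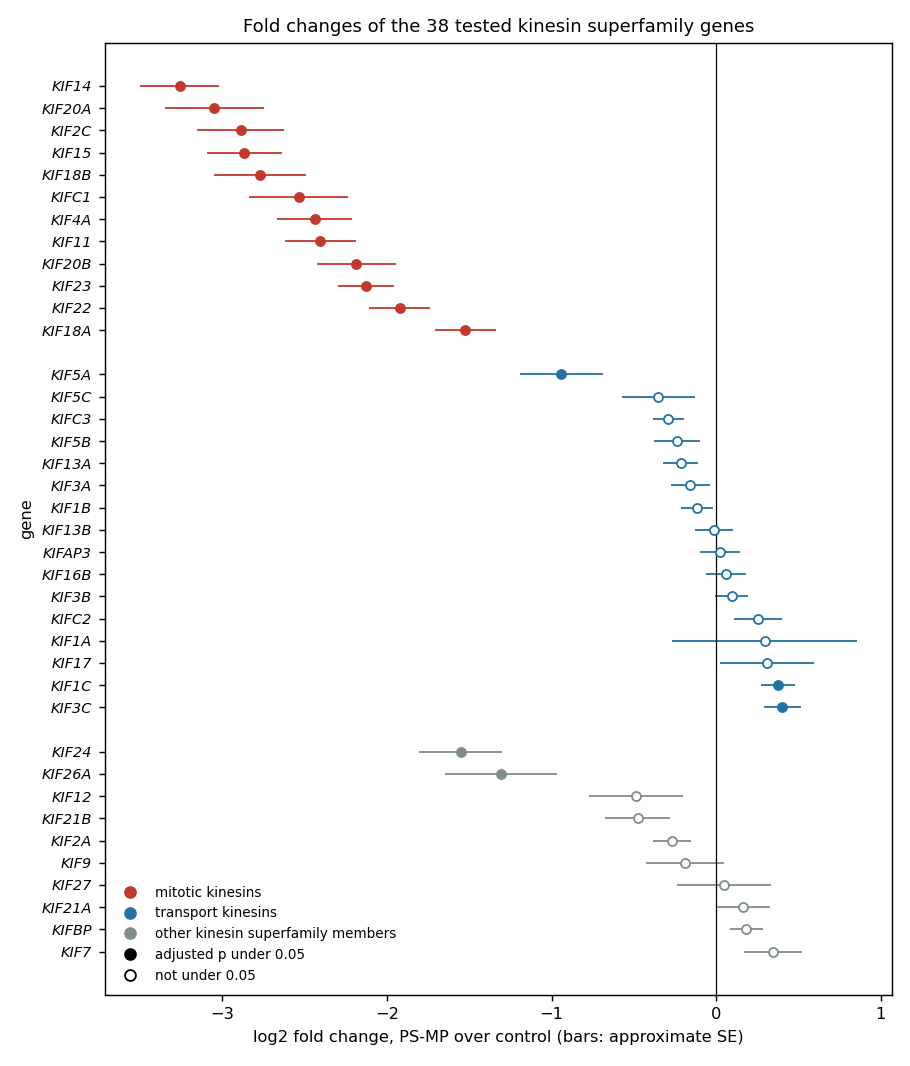
Log2 fold changes (PS-MP over control) of the 38 tested family members, with approximate standard errors as bars, grouped by class and ordered within it; filled points have an adjusted p under 0.05. The 12 mitotic members lie between −3.26 and −1.52, while 15 of the 16 transport members lie within 0.5 of zero.

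The 12 tested mitotic genes were next compared in the sequence before their start. Members had been chosen by their roles in mitosis and not by sequence, but with earlier results of these data known. RefSeq promoter windows (GRCh38.p14, 250 bases before the start and 50 from it on) were found for 36 of the 44 members. Tested members without a window were KIF5A, KIF13B, KIFC2, KIFC3, KIF21B and KIF27. KIF5A, the transport member called lower, could therefore not be searched. Many genes of G2 and mitosis are known to carry a cell cycle genes homology region (CHR), the short element TTTGAA or TTTAAA that is bound by the MuvB core of the DREAM complex and of the MYBL2 and FOXM1 activators, downstream of boxes that read ATTGG or its reverse complement and are bound by NF-Y. Exact matches were searched on both strands with overlaps allowed. A CHR match was present in 11 of the 12 mitotic windows (91.7%), in 2 of the 12 transport windows (16.7%), in none of the 8 windows of the other tested members, and in 19.5% of 15843 protein-coding windows. The NF-Y box was present in 10 of the mitotic windows (83.3%), 3 of the transport windows (25.0%), 3 of the 8 other windows (37.5%) and 36.4% of all windows. Both occurred together in 9 mitotic windows, 1 transport window, none of the other members' windows and 7.95% of all windows. KIF2A, counted here with the others, had neither element. Of the mitotic members too low to test, which these shares leave out, KIF2B had neither element and KIF4B had both. A match describes letters in this window and does not show that a factor is bound there. The class was chosen by mitotic role, with which these elements are known to go, so its shares are no independent support for the falls.

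The 110 bases before the start are shown for 5 mitotic motors with both elements, for KIF22, the mitotic motor without a CHR match, and for the transport motors with the most counts, KIF5B and KIF1C. Capitals mark the CHR and NF-Y box matches, all sequences run 5′ to 3′ on the strand of the gene, and they come from RefSeq. The coordinates in GRCh38.p14 are KIF11 chr10:92593020-92593129 (plus strand), KIF4A chrX:70289994-70290103 (plus strand), KIF20A chr5:138179002-138179111 (plus strand), KIF23 chr15:69414239-69414348 (plus strand), KIF18A chr11:28108157-28108266 (minus strand), KIF22 chr16:29790641-29790750 (plus strand), KIF5B chr10:32056426-32056535 (minus strand) and KIF1C chr17:4997840-4997949 (plus strand).
KIF11: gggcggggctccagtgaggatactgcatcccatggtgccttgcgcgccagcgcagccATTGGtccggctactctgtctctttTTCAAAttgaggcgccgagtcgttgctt
KIF4A: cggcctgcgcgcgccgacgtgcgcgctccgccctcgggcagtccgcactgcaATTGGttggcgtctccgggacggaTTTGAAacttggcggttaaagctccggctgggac
KIF20A: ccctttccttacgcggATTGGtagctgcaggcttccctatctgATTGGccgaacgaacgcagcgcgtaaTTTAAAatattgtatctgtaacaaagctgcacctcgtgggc
KIF23: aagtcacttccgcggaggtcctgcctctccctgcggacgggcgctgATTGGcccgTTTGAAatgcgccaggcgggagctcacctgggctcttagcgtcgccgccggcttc
KIF18A: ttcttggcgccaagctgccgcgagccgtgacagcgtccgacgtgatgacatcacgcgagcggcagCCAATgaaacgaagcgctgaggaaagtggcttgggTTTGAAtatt
KIF22: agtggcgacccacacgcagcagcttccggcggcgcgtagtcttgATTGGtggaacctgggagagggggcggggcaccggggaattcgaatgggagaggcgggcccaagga
KIF5B: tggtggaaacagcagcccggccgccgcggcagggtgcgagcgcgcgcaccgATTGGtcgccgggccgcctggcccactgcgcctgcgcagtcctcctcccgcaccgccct
KIF1C: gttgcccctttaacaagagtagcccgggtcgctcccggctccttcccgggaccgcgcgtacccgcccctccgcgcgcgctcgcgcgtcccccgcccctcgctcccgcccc

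In KIF11, KIF4A and KIF20A the CHR began 25, 24 and 26 bases after the start of the nearest box, a nearly equal spacing. It was 35 bases in KIF18A and 9 in KIF23, and over the 9 mitotic windows with both elements it ran from 9 to 122 bases. KIF15 and KIF2C had a CHR match and no box, and KIF22 had a box and no CHR. Of the other members called lower, KIF24 had 3 boxes and no CHR, and KIF26A had neither. In KIF5B the only CHR match lay 140 bases before the start, upstream of its box, and KIF1C had neither element. The 5 mitotic motors shown with both elements each had a CHR match downstream of a box. KIF23 and KIF14 also had a further CHR match upstream of the box, which in KIF23 lies outside the bases shown. The start used by RefSeq coincided with the 5′ end of the gene in the deposited annotation for KIF4A, KIF18A, KIF5B and KIF1C, lay 24 to 393 bases inside it for KIF22, KIF23 and KIF20A, and lay 19025 bases inside it for KIF11.

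Spindle assembly motors were the first group of mitotic members. KIF11 (Eg5; ENSG00000138160, chromosome 10, 92574105 to 92655395, GRCh38 as deposited) slides antiparallel microtubules apart to hold the spindle poles separate. It had 10.5, 7.79 and 7.32 CPM in PS-MP replicates 1 to 3, against 35.4, 39.4 and 60.4 CPM in control replicates 1 to 3. Every PS-MP library lay below every control, and the fall was 5.29-fold (log2 fold change −2.40 ± 0.22 SE, adjusted p = 0.000115). For KIF15, which can take over from KIF11 in holding the spindle bipolar, the values were 1.68, 1.01 and 1.11 CPM with PS-MPs, against 8.30, 9.46 and 9.94 CPM in the controls, a fall of 7.29-fold (log2 fold change −2.87 ± 0.23 SE, adjusted p = 7.01e-05). KIF15 overlaps TMEM42 on the same strand, a gene with more counts than KIF15 itself (mean 202 against 106), and how reads were divided between them is not stated. KIFC1 (HSET), the minus-end motor that draws spindle poles together and gathers extra centrosomes, had 5.44, 5.997 and 2.07 CPM with PS-MPs, against 23.3, 22.5 and 32.2 CPM in the controls. It was 5.80-fold lower (adjusted p = 0.000457), and PS-MP replicate 3 was the lowest of the 6 libraries.

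Motors of chromosome attachment and alignment fell as well. KIF2C (MCAK), a kinesin that does not walk but removes tubulin from microtubule ends at centromeres, had 6.54, 5.21 and 3.24 CPM in PS-MP replicates 1 to 3, against 30.9, 29.9 and 49.7 CPM in control replicates 1 to 3. That is a 7.40-fold fall with no overlap (log2 fold change −2.89 ± 0.26 SE, adjusted p = 0.000127). KIF18A, which shortens the swings of chromosomes on the metaphase plate, had 3.65, 4.99 and 5.52 CPM with PS-MPs, against 12.1, 13.6 and 15.03 CPM in the controls. Its 2.87-fold fall was the smallest of the class (log2 fold change −1.52 ± 0.18 SE, adjusted p = 0.000474), and unlike most members it was highest in PS-MP replicate 3 within its group. Its relative KIF18B, a regulator of the length of astral microtubules, had 4.40, 4.04 and 2.17 CPM with PS-MPs, against 20.4, 18.8 and 32.8 CPM in the controls, a 6.81-fold fall (adjusted p = 0.000203). The chromokinesin KIF22 (Kid), which binds DNA and pushes chromosome arms away from the poles, had 15.7, 15.2 and 11.7 CPM with PS-MPs, against 45.99, 45.5 and 69.9 CPM in the controls. It fell 3.79-fold, after KIF18A the second smallest fall of the class (adjusted p = 0.000172). KIF4A, a chromokinesin that also limits midzone microtubule length together with PRC1, had 12.1, 7.79 and 6.05 CPM with PS-MPs, against 40.98, 42.8 and 56.5 CPM in the controls, and fell 5.42-fold (adjusted p = 0.00013). KIF4A overlaps PDZD11 on the other strand, whose mean count was 1377 against 555; the kit keeps strand, but whether the counting used it is not stated.

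The 4 motors of the midzone and of cytokinesis include the steepest falls. KIF14 (ENSG00000118193, chromosome 1, 200551497 to 200620751), which localises citron kinase to the midbody, had 2.90, 1.91 and 1.80 CPM in PS-MP replicates 1 to 3, against 16.4, 20.2 and 26.4 CPM in control replicates 1 to 3. The groups were far apart, and the fall was 9.57-fold (log2 fold change −3.26 ± 0.24 SE, adjusted p = 6.4e-05). KIF20A (MKLP2; ENSG00000112984, chromosome 5, 138178719 to 138187723), which carries Aurora B and its partners to the midzone, had 9.03, 7.73 and 3.50 CPM in PS-MP replicates 1 to 3, against 47.2, 45.2 and 74.6 CPM in control replicates 1 to 3. It was 8.27-fold lower (log2 fold change −3.05 ± 0.30 SE, adjusted p = 0.000191), and PS-MP replicate 3 was well below the other PS-MP libraries. KIF20A overlaps CDC23 and BRD8 on the other strand (mean counts 898 and 775 against 630). KIF23 (MKLP1), the motor of the centralspindlin complex, had 18.3, 15.9 and 12.7 CPM with PS-MPs, against 58.7, 62.7 and 83.4 CPM in the controls, and fell 4.37-fold (adjusted p = 7.04e-05). KIF20B (MPP1), which acts late in abscission, had 3.24, 2.80 and 2.33 CPM with PS-MPs, against 10.4, 10.5 and 17.1 CPM in the controls, a 4.55-fold fall (adjusted p = 0.000301).

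**Figure D2:**
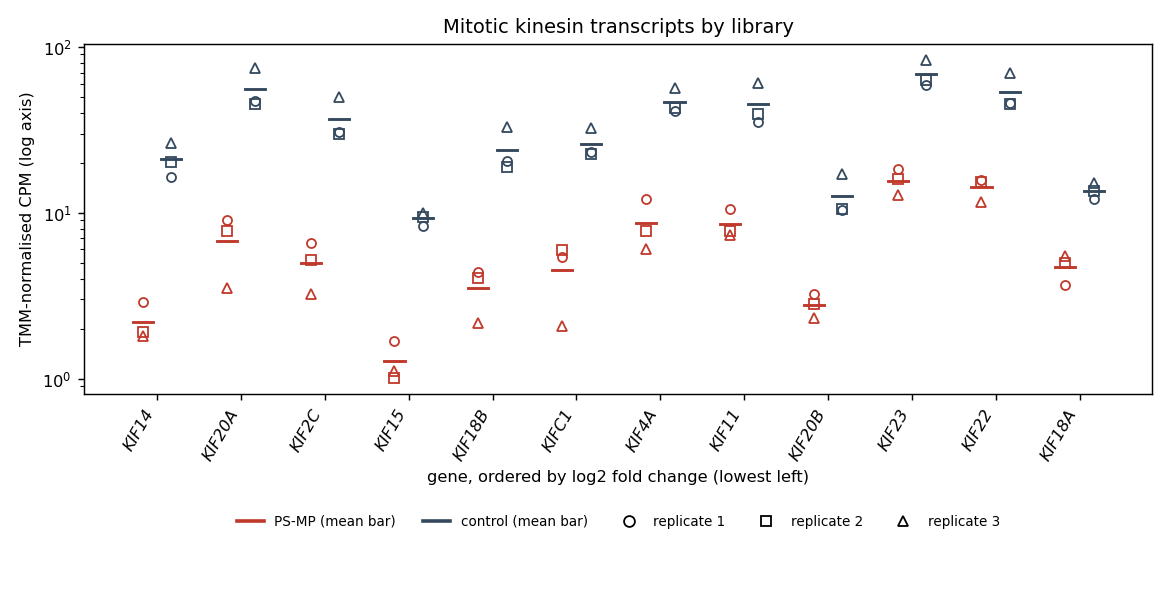
TMM-normalised CPM (log axis) of the 12 tested mitotic kinesins in each library, with PS-MP left of control for each gene, symbols for replicate numbers and bars for group means. In every gene the 3 PS-MP libraries lie below the 3 controls, and the triangle of control replicate 3 is the highest control.

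No tested mitotic member overlapped between the groups. Over all tested genes 32% did not overlap, 15.4% with every PS-MP library below every control. A fall of at least 4-fold was found in 10 of the 12. Replicates were ordered alike in most of these genes: control replicate 3 was the highest control in 12 of 12 members, and PS-MP replicate 3 was the lowest PS-MP library in 10 of 12. The median of the class, relative to the control mean on the log2 scale, was −2.13, −2.49 and −2.92 in PS-MP replicates 1 to 3 and −0.20, −0.17 and 0.38 in control replicates 1 to 3. Without both replicate 3 libraries the 12 members still passed as lower, with a median of −2.06 in place of −2.49, while 26.6% of all tested genes passed in that setting. Over the 16 alternative settings the log2 fold changes of the 12 members stayed between −3.50 and −1.37 and their adjusted p did not exceed 0.00784. Of the 2 mitotic members below the filter, KIF2B, a depolymerase known mainly from testis, had 0 counts in every library, and KIF4B, an intronless copy of KIF4A, had 0 to 4 counts. Reads of KIF4B and KIF4A are hard to tell apart, and how the counting treated them is not stated.

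Transport kinesins gave a different picture, which was described class by class and not tested against the mitotic one. Kinesin-1 moves mitochondria, vesicles and lysosomes, and KIF5B is its widely expressed heavy chain. KIF5B had 122, 95.5 and 143 CPM in PS-MP replicates 1 to 3, against 134, 140.0 and 151 CPM in control replicates 1 to 3. The groups overlapped and the test was not passed (log2 fold change −0.24 ± 0.14 SE, adjusted p = 0.326), with PS-MP replicate 2 the lowest library and PS-MP replicate 3 within the control range. KIF5C, a heavy chain best known from neurons, had 5.38, 4.43 and 7.43 CPM with PS-MPs, against 8.54, 7.63 and 5.91 CPM in the controls (log2 fold change −0.35, adjusted p = 0.372). Without both replicate 3 libraries KIF5B and KIF5C passed as lower, with log2 fold changes of −0.34 and −0.72 (adjusted p = 0.0259 for KIF5B and 0.00673 for KIF5C). KIF5A, the other neuronal heavy chain, stood at 1.22, 1.34 and 1.22 CPM with PS-MPs, against 2.47, 2.74 and 2.06 CPM in the controls, without overlap. It was 1.92-fold lower at a low level of 21 to 60 counts per library (log2 fold change −0.94 ± 0.25 SE, adjusted p = 0.0402). KIF5A overlaps DCTN2 on the other strand at the gene ends, with a mean of 2538 counts for DCTN2 against 35.8 for KIF5A. Its call was lost by DESeq2 (adjusted p = 0.0627), without any of PS-MP replicates 1, 2 and 3 or control replicates 1 and 2 (0.0628 to 0.168) and with replicate numbers as blocks (0.104).

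Kinesin-2 motors serve intraflagellar transport and the movement of membranes. The heterotrimer of KIF3A, KIF3B and KIFAP3 did not pass in any subunit. KIF3B had 79.96, 75.6 and 85.5 CPM with PS-MPs, against 73.9, 71.2 and 80.7 CPM in the controls, and KIF3A and KIFAP3 had log2 fold changes of −0.16 and 0.02 (adjusted p = 0.611 for KIF3B, 0.450 for KIF3A and 0.928 for KIFAP3). KIF3C, which pairs with KIF3A in place of KIF3B, had 87.1, 91.1 and 79.5 CPM in PS-MP replicates 1 to 3, against 70.6, 67.9 and 56.6 CPM in control replicates 1 to 3. Each PS-MP library was above each control, and the rise was 1.32-fold (log2 fold change 0.40 ± 0.11 SE, adjusted p = 0.0497). This call sat at the threshold and was lost with RLE, upper-quartile and total-count scaling (adjusted p = 0.052, 0.0512 and 0.0853), by limma-voom (0.0505), without any one library other than PS-MP replicate 3 (0.0861 to 0.162) and with the replicate block (0.101). KIF17, the homodimeric kinesin-2 of cilia and dendrites, had 1.74 ± 0.104 CPM in PS-MP cells and 1.39 ± 0.417 CPM in controls (adjusted p = 0.550).

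Among kinesin-3 motors, which carry vesicles and endosomes over long distances, KIF1C rose. KIF1C, a motor of dense-core vesicles and of integrin-containing vesicles, had 158, 161 and 137 CPM in PS-MP replicates 1 to 3, against 118, 109 and 124 CPM in control replicates 1 to 3. All 3 PS-MP libraries were above the controls, with a 1.30-fold rise (log2 fold change 0.37 ± 0.10 SE, adjusted p = 0.0476). The call was lost with RLE and total-count scaling (adjusted p = 0.0556 and 0.102), by limma-voom (0.0507), without any of PS-MP replicates 1 and 2 and control replicates 1 and 2 (0.158 to 0.199) and with the replicate block (0.160). KIF1B, a carrier of mitochondria and synaptic vesicle precursors, had 60.1 ± 2.23 CPM in PS-MP cells and 65.2 ± 2.11 CPM in controls, and KIF13A, a motor of endosomes and of the mannose-6-phosphate receptor, had 45.5 ± 3.50 CPM in PS-MP cells and 52.8 ± 3.14 CPM in controls (n = 3 each). In both genes the PS-MP libraries lay below the controls, by less than the test required (adjusted p = 0.488 for KIF1B and 0.241 for KIF13A). KIF13B and KIF16B (KIF16B binds early endosomes) had log2 fold changes of −0.01 and 0.06 (adjusted p = 0.962 for KIF13B and 0.807 for KIF16B). KIF1A, the axonal vesicle motor, varied between 0.265 and 1.85 CPM within the PS-MP group and between 0.641 and 1.53 CPM in the controls (adjusted p = 0.795).

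The minus-end transport motors did not pass either. KIFC3, which carries vesicles towards the apical surface of epithelial cells, had 84.7, 88.3 and 79.03 CPM in PS-MP replicates 1 to 3, against 105, 100.5 and 103 CPM in control replicates 1 to 3. The groups did not overlap, and the 1.22-fold difference missed the threshold (log2 fold change −0.29 ± 0.09 SE, adjusted p = 0.0809). It passed as lower with total-count scaling (adjusted p = 0.0403) and without both replicate 3 libraries (0.017). KIFC2 had 15.9 ± 1.28 CPM in PS-MP cells and 13.4 ± 1.91 CPM in controls (log2 fold change 0.25, adjusted p = 0.326).

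**Figure D3:**
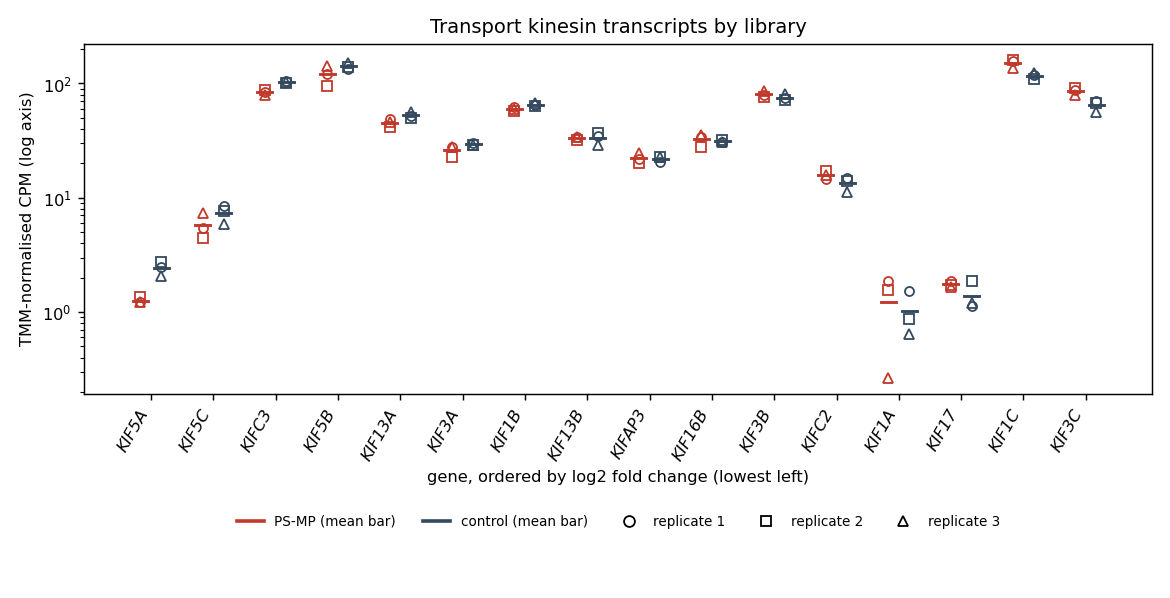
TMM-normalised CPM (log axis) of the 16 tested transport kinesins in each library, with PS-MP left of control for each gene, symbols for replicate numbers and bars for group means. Group means are close for most genes; KIF5A at the left is lower, and KIF1C and KIF3C at the right are higher, in all 3 PS-MP libraries.

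Of the 16 transport members 15 had an absolute log2 fold change under 0.5, and 3 of 16 were called (18.8%), where 9.56% of all tested genes were. The 3 calls did not hold in all alternative settings, as given above. In 5 members every PS-MP library lay below every control and in 2 every one lay above, against 15.4% and 16.6% of all tested genes. The median of the class turned to −0.06 with total-count scaling, which moved the median of all tested genes to −0.06 as well. Set against the control mean, the class median was 0.01, −0.15 and 0.03 in PS-MP replicates 1 to 3 and 0.02, 0.02 and −0.02 in control replicates 1 to 3. The 6 neuronal markers, relevant to KIF1A, KIF5A and KIF5C, summed to 102 to 133 CPM in PS-MP libraries and 80.3 to 89.5 CPM in controls. Of the 5 tested only the neurofilament gene NEFL was called, as higher (61.4 ± 2.63 CPM in PS-MP cells and 37.9 ± 0.717 CPM in controls, log2 fold change 0.70 ± 0.10 SE, adjusted p = 0.00115). The log2 fold changes of the other 4 were 0.24 for RBFOX3, 0.38 for MAP2, −0.21 for SNAP25 and −0.40 for SYP, and the part of these genes was not tested.

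Because a share within the family does not depend on library scaling, the counts of mitotic members were also given as a percentage of all kinesin counts. It was 9.08%, 8.42% and 5.95% in PS-MP replicates 1 to 3 and 27.7%, 28.3% and 36.3% in control replicates 1 to 3. The mean share was 7.82% ± 1.65 in PS-MP cells and 30.8% ± 4.80 in controls (SD, n = 3 each). Exact Clopper-Pearson 95% intervals ran from 5.62% at the lowest to 9.52% at the highest among PS-MP libraries and from 27.1% to 36.9% among controls, and cover counting error only. Transport members held 13200 to 14662 counts in PS-MP libraries and 12945 to 16834 in controls, and mitotic members 1124 to 1617 counts in PS-MP libraries and 5946 to 11526 in controls. Longer transcripts give more counts, so the share is one of counts and not of molecules.

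**Figure D4:**
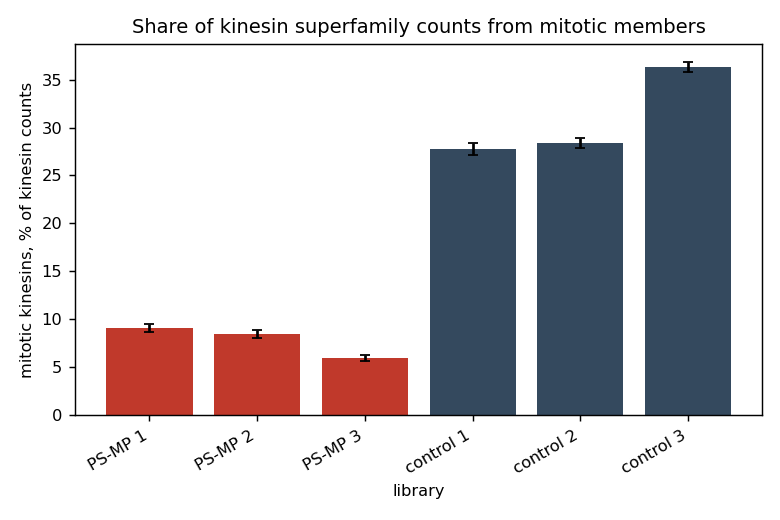
Percentage of kinesin superfamily counts that came from mitotic members in each library, with exact 95% binomial intervals as bars. The 3 PS-MP libraries lie between 5.95% and 9.08% and the 3 controls between 27.7% and 36.3%.

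The remaining members have ciliary, centriolar or microtubule-regulating roles. KIF24, a depolymerase that acts on the mother centriole and restrains the growth of cilia, had 2.37, 2.47 and 2.07 CPM in PS-MP replicates 1 to 3, against 4.42, 7.63 and 8.11 CPM in control replicates 1 to 3. It was 2.93-fold lower without overlap (log2 fold change −1.55 ± 0.25 SE, adjusted p = 0.00321), and passed in all 16 alternatives. UBAP1 overlaps KIF24 on the other strand, with a mean of 2059 counts against 90.5. KIF26A, an atypical kinesin without motor activity, had 0.579, 0.560 and 0.424 CPM with PS-MPs, against 1.47, 1.01 and 1.42 CPM in the controls, or 8 to 31 counts per library. Its 2.47-fold fall (log2 fold change −1.30 ± 0.34 SE, adjusted p = 0.0362) lost its call by DESeq2, with the replicate block, without any one library and without both replicate 3 libraries (adjusted p from 0.0566 to 0.127).

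KIF2A, the relative of KIF2C that depolymerises microtubules at spindle poles and in growing neurites, had 37.8, 34.2 and 43.3 CPM with PS-MPs, against 48.2, 45.5 and 45.3 CPM in the controls. Unlike KIF2C it did not pass (log2 fold change −0.27 ± 0.11 SE, adjusted p = 0.175), although the groups did not overlap, and it passed as lower without both replicate 3 libraries (adjusted p = 0.00651). KIFBP, which binds and inhibits several kinesins, among them KIF15 and KIF18A, had 50.5, 50.1 and 48.6 CPM with PS-MPs, against 41.6, 47.3 and 42.7 CPM in the controls. Its PS-MP libraries lay above the controls without passing (log2 fold change 0.18 ± 0.10 SE, adjusted p = 0.301). KIF21A and KIF21B, which restrain microtubule growth, had log2 fold changes of 0.16 and −0.48 (adjusted p = 0.581 for KIF21A and 0.169 for KIF21B). KIF21B passed as lower without PS-MP replicate 3 (log2 fold change −0.66, adjusted p = 0.0487) and without both replicate 3 libraries (−0.61, adjusted p = 0.0208). For KIF21A the libraries read 38.2, 27.1 and 44.2 CPM with PS-MPs, against 32.2, 35.1 and 30.5 CPM in the controls, and PS-MP replicate 2 was lower than every control while the other PS-MP libraries were higher than every control. KIF7, which organises the ciliary tip in hedgehog signalling, stood at 5.48 ± 0.631 CPM in PS-MP cells and 4.31 ± 0.272 CPM in controls (adjusted p = 0.269). KIF9, a motor of motile cilia, had 5.85, 5.04 and 4.56 CPM with PS-MPs, against 4.59, 4.89 and 8.06 CPM in the controls, and KIF12 had a log2 fold change of −0.49 (adjusted p = 0.673 for KIF9 and 0.333 for KIF12). KIF12 passed as lower without both replicate 3 libraries (log2 fold change −0.83, adjusted p = 0.0367). KIF27 had 4.62 ± 2.10 CPM in PS-MP cells and 4.49 ± 0.461 CPM in controls (adjusted p = 0.945). KIF6, KIF25 and KIF26B had at most 6 counts in any library, and KIF19 had 0 in all 6, so these 4 were not tested.

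Partners of the mitotic motors moved with them. Of the 23 tested spindle and midzone partners 20 fell and none rose, with a median log2 fold change of −2.29, against 4.65% called lower over all tested genes. Without the filter on low counts 18 were called lower, as BIRC5 and PLK1 lost their calls (adjusted p = 0.0807 and 0.0761). With both replicate 3 libraries left out 21 were called lower, NUMA1 among them (adjusted p = 0.0407). The count was 20 in the remaining alternatives. These partners were listed with earlier results of these data known, so their share is no independent support for the falls of the motors. CENPE, the kinetochore kinesin whose name falls outside the rule, was 7.32-fold lower (1.40 ± 0.367 CPM in PS-MP cells and 10.2 ± 2.77 CPM in controls, n = 3 each, adjusted p = 0.00013). CIT, the citron kinase bound by KIF14, was 7.34-fold lower (5.19 ± 1.94 CPM in PS-MP cells and 37.9 ± 3.04 CPM in controls, adjusted p = 7.01e-05). RACGAP1, which forms centralspindlin with KIF23, was 3.35-fold lower (28.7 ± 4.87 CPM in PS-MP cells and 95.98 ± 12.3 CPM in controls, adjusted p = 8.63e-05). TPX2, which brings KIF11 and KIF15 to the spindle, was 4.51-fold lower (adjusted p = 0.0001), the spindle protein HMMR 6.96-fold (adjusted p = 0.000113) and the contractile ring protein ANLN 5.96-fold (adjusted p = 7.01e-05). The 3 that did not pass in the main fit were NUMA1, CLASP1 and CLASP2 (log2 fold changes −0.11, −0.10 and −0.24), which anchor spindle poles or stabilise microtubule plus ends. NUSAP1 was too low to test. PRC1, the midzone partner of KIF4A, was called lower at 0.241 ± 0.085 CPM in PS-MP cells and 1.24 ± 0.339 CPM in controls (adjusted p = 0.00571). PRC1 had 3 to 6 counts in PS-MP libraries and 15 to 34 in controls, close to the floor of 3 counts in the PS-MP group. How reads that could be assigned to several genes were counted is not stated, so its level is uncertain.

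Partners of the transport motors were not called. Of 18 tested light chains and cargo adaptors none passed by edgeR, where 9.56% of all tested genes did. At an unadjusted p under 0.05 there were 2, KLC4 and PLEKHM2, while DESeq2 and limma-voom each called 0. Their log2 fold changes ran from −0.17 for MADD, an adaptor of KIF1A and KIF1B, to 0.34 for the light chain KLC4. KLC1 and KLC2, the kinesin-1 light chains, had log2 fold changes of 0.05 and −0.03, and the mitochondrial adaptors TRAK1 and TRAK2 0.10 and 0.01. Of 23 tested genes of cytoplasmic dynein and dynactin, the opposing motor, 2 rose and 1 fell. The light chain gene DYNLT3 rose 1.39-fold (adjusted p = 0.0185) and the dynactin subunit gene DCTN5 1.27-fold (adjusted p = 0.0419). The fall was that of NDE1, a dynein regulator with a role in mitosis (13.4 ± 0.784 CPM in PS-MP cells and 25.01 ± 6.999 CPM in controls, n = 3 each, 1.87-fold lower, adjusted p = 0.0106), while its paralog NDEL1 had a log2 fold change of 0.10 (adjusted p = 0.642).

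Tubulins, the track on which both classes run, were mixed. Of 13 tested tubulin genes 5 fell and 1 rose, where 4.65% of all tested genes were called lower and 4.91% higher. DESeq2 called 5 of the 13 and limma-voom 4, against 6 here. TUBB fell 1.81-fold (449.5 ± 39.1 CPM in PS-MP cells and 815 ± 235 CPM in controls, n = 3 each, adjusted p = 0.0112), TUBA1B 2.40-fold (adjusted p = 0.0170), TUBB4B 1.89-fold (adjusted p = 0.0418), TUBA1C 1.67-fold (adjusted p = 0.0489) and TUBG1, the gamma-tubulin that nucleates microtubules, 1.53-fold (adjusted p = 0.0245). TUBA1A rose 1.56-fold (adjusted p = 0.0368). Alpha- and beta-tubulin genes are nearly identical in sequence, so reads may have been split between them or dropped, and these values are uncertain. The summed tubulin level was 940 to 1261 CPM in the PS-MP libraries, against 1492 and 1510 CPM in control replicates 1 and 2 and 2475 CPM in control replicate 3, which was thus the highest library. The part of that library in the tubulin calls was not tested.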

How the data were processed

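The deposited table held whole-number counts per Ensembl gene for each of 6 libraries, as the authors made them. These counts are labelled as merged featureCounts output. The submitters' processing notes name fastp, HISAT2, StringTie, RSEM and DESeq2, and GRCh38 as the build, and do not name featureCounts. Versions, the strand setting and the annotation release are not given in the sources used here, so overlapping and near-identical genes are uncertain.

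Testing used R 4.3.3 and edgeR 4.0.16. The filterByExpr function kept 15458 genes, among them 38 of the 44 members. After TMM scaling, a robust quasi-likelihood F test (two-sided) compared the groups, and p-values were adjusted by Benjamini-Hochberg over the genes kept, at 0.05. Standard errors were approximated as the log2 fold change over the root of F. The procedure was also run on simulated counts of independent libraries in which 200 genes were changed. These held no shift of the replicate 3 libraries, so they cannot show how such a shift affects the calls. Totals of 17013293 to 21316451 counts per library set the precision. Members and lists were chosen with earlier results of these data known. Called members and the 4 with the highest CPM in each class are given by library. From the other lists up to 6 called genes with the smallest adjusted p are named, and further genes there were chosen after their values were seen. Values are not scaled to transcript length, so counts or CPM set side by side for different genes describe reads and not relative transcript levels. Alternatives were DESeq2 1.42.0, limma-voom (limma 3.58.1), 3 other scalings, 2 other filters, protein-coding genes alone, each library left out, both replicate 3 libraries left out and the replicate number as a block. These were run for the members and the spindle partners. Promoter windows came from RefSeq.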

Additional observations from a re-analysis of the deposited data

How the results depend on the processing

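The count of 12 mitotic kinesins called lower was unchanged in the 16 alternatives run, and with KIF2A added to the class, an alternative chosen after seeing the data. Their median moved from −2.49 to −2.06 with both replicate 3 libraries left out, and that of the other members from −0.23 to −0.43. The 1478 genes called overall became 4129 with both replicate 3 libraries left out, 750 with the replicate block and 771 to 1696 without one library at a time (771, 799, 887 and 896 without PS-MP replicates 1 and 2 and control replicates 1 and 2). Transport members called lower numbered 2 with total-count scaling, 4 with both replicate 3 libraries left out, 0 by DESeq2, 0 with the replicate block and 0 to 1 without one library, against 1. Those called higher numbered 0 with RLE or total-count scaling, limma-voom or the replicate block, 1 with upper-quartile scaling and 0 to 2 without one library, against 2. Other members called lower numbered 4 with both replicate 3 libraries left out, 1 by DESeq2 or with the replicate block and 1 to 2 without one library, against 2. The cause was not tested.

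Direction turned in 7 members, none of them called, and their log2 fold changes follow. By limma-voom it was −0.0163 for KIF1A and −0.0349 for KIF27. Without one library at a time it ranged from −0.128 to 0.787 for KIF1A, from −0.109 to 0.0599 for KIF13B, from −0.0120 to 0.158 for KIF16B, from −0.0563 to 0.0899 for KIFAP3, from −0.342 to 0.114 for KIF9 and from −0.389 to 0.269 for KIF27. With total-count scaling it was −0.00450 for KIF16B, −0.0404 for KIFAP3 and −0.0164 for KIF27. With both replicate 3 libraries left out it was −0.0282 for KIF16B, −0.0416 for KIFAP3, 0.191 for KIF9, −0.0505 for KIF21A and −0.478 for KIF27. With the replicate block it was −0.0263 for KIF27. Nothing states that samples with the same replicate number share a culture or day, so the numbers were not taken as pairs. Correlations of their deviations from the group means were −0.0947, −0.108 and −0.181. No PS-MP library correlated best with the control of its own number. With 3 libraries per group these values cannot settle whether the numbers are pairs.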
